A study of Homo sapiens with 8 samples.

Results

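The class 3 semaphorin genes *SEMA3A*, *SEMA3C*, *SEMA3D* and *SEMA3E* lie together on chromosome 7 with *GNAI1*, *CD36*, *HGF*, *CACNA2D1* and *PCLO*. These 9 of 20052 protein-coding genes were examined with all H3K27ac peaks from 80 to 90 Mb of chromosome 7 (GRCh38), each given to the nearest of the 9 genes. H3K27ac was measured by ChIP-sequencing in 2 stable lines of MIA PaCa-2, an established line from a human pancreatic carcinoma. Both lines carried lentiMPHv2 and a lentiSAMv2 vector for CRISPR activation, with a guide to *HDAC1* in MP2_HDAC1_OE and a non-targeting guide in MP2_NTC. Each line had 2 H3K27ac samples and 2 control samples without antibody, which the authors pooled into 1 peak list per line. There were thus no replicate values, the depth of sequencing is unknown, and a difference between the lines that comes from HDAC1 cannot be told apart from any other difference between these 2 stable lines. The window held 55 of 25045 MP2_HDAC1_OE peaks and 23 of 22569 MP2_NTC peaks. They merged, wherever peaks shared at least 1 bp, into 41 of 18678 regions.

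Acetylation of histone H3 at lysine 27 marks active promoters and enhancers, and HDAC1 removes acetyl groups from histones. Class 3 semaphorins are secreted guidance proteins that bind neuropilins and plexins on the receiving cell and steer axons, vessels and migrating cells. HGF, the ligand of the receptor MET, is made by mesenchymal cells and drives epithelial cells to scatter and invade. CD36 takes up fatty acids, GNAI1 is an inhibitory G protein alpha subunit, CACNA2D1 is an auxiliary subunit of voltage-gated calcium channels, and PCLO is a scaffold of the presynaptic active zone.

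The window was chosen by the number of its regions found only in the MP2_HDAC1_OE list, which stood in clear excess. Which list a region came from, and the rank of its peaks, are therefore given as description with no test. Regions only in MP2_HDAC1_OE made up 28.6% of all regions, regions only in MP2_NTC 20.7% and shared regions 50.7%. In the window these counts were 26 (63.4%, 95% Wilson interval 48.1% to 76.4%), 5 (12.2%) and 10 (24.4%). The interval covers counting error alone. Among 247 windows of 10 Mb with at least 20 regions the median share only in MP2_HDAC1_OE was 28.5%, and 0 had a higher share than this window. That place follows from choosing the window for its excess and is no separate result. The neighbouring windows had 26.9% from 70 to 80 Mb and 25.9% from 90 to 100 Mb. At the lower edge, the last MP2_HDAC1_OE peak before the window lay at chr7:78019659-78020478 with a rank above 31.5%, and the first inside ranked above 61.1%. At the upper edge, the last MP2_HDAC1_OE peak inside ranked above 18.9% and the first beyond, at chr7:90346031-90346850, above 67.3%. That last peak inside overlapped a stronger MP2_HDAC1_OE peak of the same region, which ranked above 96.4%.

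In each list as a whole, the highest-ranked peak at the promoter of *HDAC1*, the activated gene, stood above 93.9% of MP2_HDAC1_OE peaks and above 45.2% of MP2_NTC peaks. Regions of either list lay at the promoters of 3 of 5 epithelial carcinoma markers (*KRT8*, *KRT18* and *KRT19*, but not *EPCAM* or *CDH1*). They also lay at those of 2 of 3 mesenchymal markers (*VIM* and *ZEB1*, but not *CDH2*), against 48.6% of all coding genes. *KRT18*, *VIM* and *ZEB1* had a shared region. *KRT18* also had 1 region only in MP2_HDAC1_OE, and *VIM* 1 only in MP2_NTC. *KRT8* had 1 region, only in MP2_HDAC1_OE. *KRT19* had 1 region only in MP2_HDAC1_OE and 1 only in MP2_NTC, which ranked above 6.86% of its list. No region was listed at the 3 acinar, 2 islet, 1 blood and 2 neuron markers, and 1 of 2 endothelial markers, *CDH5*, had a shared region. 

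Of the 8 genes with an annotated start, *SEMA3C* alone had a region in a promoter window, set from 2 kb upstream to 1 kb downstream of a start. Over all protein-coding genes 48.6% had a region there, 11.7% one only in MP2_HDAC1_OE and 10.1% one only in MP2_NTC. The RefSeq table of promoters (GRCh38.p14) held 16 starts for 8 of the 9 genes. *SEMA3A* had no entry, and both ends of its interval stood in for its start. No region lay at either end. A start of *SEMA3A* inside the interval was not searched, so its promoter could not be assessed. *SEMA3C* (chr7:80742538-80922389, minus strand) has 2 starts, 3338 bp apart, and each carried a region of a different list. The 250 bases before the inner start (chr7:80919052-80919301) and before the outer start (chr7:80922390-80922639) are shown because the lists differ here. They are printed 5′ to 3′ on the minus strand of GRCh38.p14, and capitals mark the GC box GGGCGG on either strand.
SEMA3C inner start: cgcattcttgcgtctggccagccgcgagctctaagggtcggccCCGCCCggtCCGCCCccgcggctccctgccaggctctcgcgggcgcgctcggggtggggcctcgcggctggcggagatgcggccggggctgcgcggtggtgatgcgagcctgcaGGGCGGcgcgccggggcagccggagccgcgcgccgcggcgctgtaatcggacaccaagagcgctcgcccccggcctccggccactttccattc
SEMA3C outer start: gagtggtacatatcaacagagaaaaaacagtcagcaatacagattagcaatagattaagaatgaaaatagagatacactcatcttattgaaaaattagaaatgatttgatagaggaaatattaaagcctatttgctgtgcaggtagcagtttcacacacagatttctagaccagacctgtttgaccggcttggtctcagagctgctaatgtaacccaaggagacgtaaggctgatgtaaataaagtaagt

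The inner promoter had 39 CpG dinucleotides in these 250 bases, more than 96.7% of 22198 promoters of coding genes, a GC content of 77.6% and 3 GC boxes. The outer promoter had 2 CpG, a GC content of 36.4% and none of the 5 motifs searched on both strands (TGANTCA of AP-1, GGAATG of TEAD factors, the GC box, the CCAAT box, and the E-box CACGTG). The GC box was present in 53.7% of all promoters, the CCAAT box in 32.7%, the TEAD motif in 10.5%, the E-box in 7.37% and the AP-1 motif in 5.36%. A match describes the letters alone and shows no binding.

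At the CpG-rich inner start of *SEMA3C*, the region was only in MP2_NTC. Its peak at chr7:80919380-80920199 began 329 bp upstream of the start and, with a signal of 41.9, stood above 36.3% of the MP2_NTC list. At the CpG-poor outer start, the region was only in MP2_HDAC1_OE. Its peak at chr7:80922456-80923275 began 67 bp upstream, covered 184 of the 250 bases shown and, with a signal of 38.4, stood above 33.4% of the MP2_HDAC1_OE list. The peaks were of like rank in their lists and 2256 bp apart. Signals are not compared between the lists, because the sources used here do not give their scaling. When both ends of the gene were used in place of its starts, the inner start was missed and the promoter held the MP2_HDAC1_OE region alone.

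A further 3 regions had *SEMA3C* as their nearest gene, all only in MP2_HDAC1_OE. The highest-ranked lay inside the gene at chr7:80883936-80884755, above 61.1% of its list, with the nearest MP2_NTC peak 34624 bp away. The other 2 lay 18306 bp and 19317 bp beyond the gene and ranked above 33.8% and 34.3%. *SEMA3C* thus had 4 regions only in MP2_HDAC1_OE, 1 only in MP2_NTC and 0 shared.

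**Figure D1:**
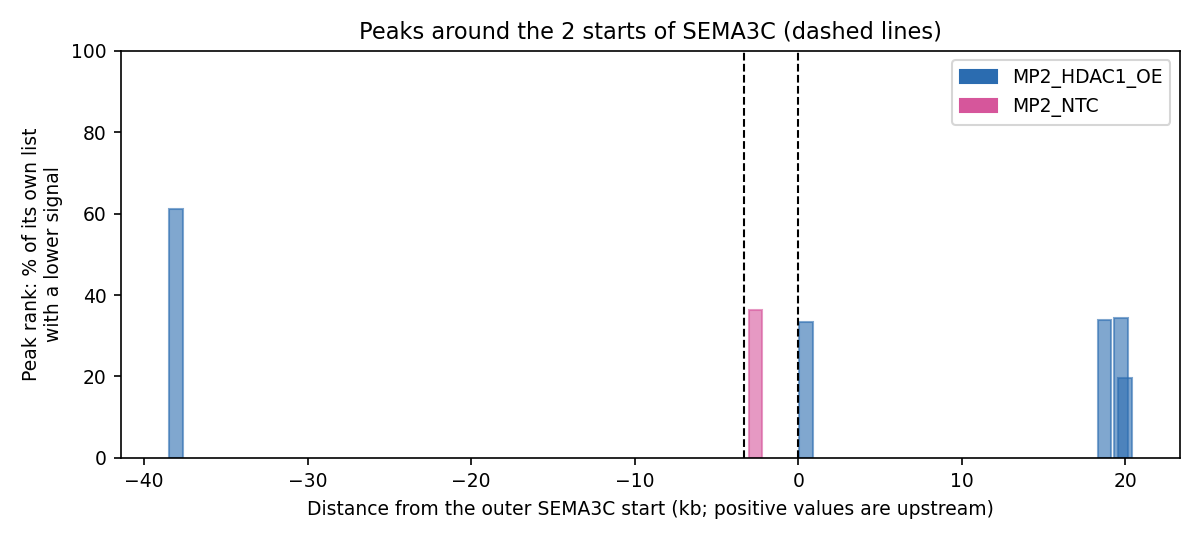
Each bar is an H3K27ac peak near *SEMA3C*, drawn to its width, with the share of its own list that had a lower signal as its height (percent) and the distance from the outer start (kb) on the horizontal axis. The dashed lines are the 2 starts, 3338 bp apart, with the MP2_NTC peak (pink, 36.3%) at the inner and an MP2_HDAC1_OE peak (blue, 33.4%) at the outer start.

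At higher coordinates than this locus, 3.08 Mb held no peak in either list, from 80942773 to 84024427. *HGF* (chr7:81699010-81770047), *CACNA2D1* (chr7:81946444-82443956), *PCLO* (chr7:82754012-83162884) and *SEMA3E* (chr7:83363238-83649139) lie inside it. *GNAI1* (chr7:80134831-80226181) and *CD36* (chr7:80602207-80679274), on the other side of *SEMA3C*, had no peak either. For these 6 genes the nearest MP2_HDAC1_OE peak was between 205 kb (*CD36*) and 1004 kb (*CACNA2D1*) from the gene, and the nearest MP2_NTC peak between 240 kb (*CD36*) and 1029 kb (*PCLO*). The 6 genes had both kinds of promoter. *GNAI1* had 34 CpG before its first start, *CACNA2D1* 27 and *PCLO* 26, against a median of 16 over all promoters. The 6 starts of *CD36* had 1 or 2 CpG, *HGF* had 6, and the 2 starts of *SEMA3E* had 1 and 6. High CpG content was therefore present at promoters with no listed peak as well as at the inner start of *SEMA3C*. As the lists hold only peaks that passed the authors' threshold, weaker acetylation at these genes is not detectable here.

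*SEMA3A* (chr7:83955777-84492725) was the nearest gene to 27 of the 41 regions, of which 19 were only in MP2_HDAC1_OE, 2 only in MP2_NTC and 6 shared. As no start of *SEMA3A* was annotated, a region inside its interval may lie at its promoter. The 27 regions formed 4 stretches, with regions at most 50 kb apart. In the first, inside the gene at chr7:84024427-84093148, all 4 regions were only in MP2_HDAC1_OE. They ranked above 41.5%, 38.0%, 25.2% and 41.6% of the list. The nearest MP2_NTC peak lay between 98308 bp and 166210 bp away, so no MP2_NTC peak was near any of them.

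The second stretch, also inside *SEMA3A*, held 5 regions within 10.4 kb (chr7:84186484-84196859), 4 only in MP2_HDAC1_OE and 1 shared. The 4 ranked above 41.9%, 39.7%, 59.4% and 69.3% of the MP2_HDAC1_OE list. The shared region in their middle, chr7:84191457-84192755, held the highest rank of the stretch. Its strongest peak stood above 71.5% of MP2_HDAC1_OE peaks, with a signal of 59.8, and above 45.1% of MP2_NTC peaks, with a signal of 46.7. The regions on either side of it were 722 bp and 740 bp from an MP2_NTC peak. The stretch thus held 8 MP2_HDAC1_OE peaks spread over 5 regions and 3 MP2_NTC peaks, all in 1 region.

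The third stretch lay 31.2 kb to 42.4 kb beyond the higher end of *SEMA3A*, at chr7:84523933-84536458. It had 2 regions, both only in MP2_HDAC1_OE, built from 6 peaks, and ranked above 57.2% and 30.6% of the list. The nearest MP2_NTC peaks were 147094 bp and 136441 bp away.

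The fourth stretch held the most regions of the 4, 16 within 43.3 kb (chr7:84659488-84702829), 167 kb to 209 kb beyond *SEMA3A* and before *SEMA3D*. It held 20 MP2_HDAC1_OE and 9 MP2_NTC peaks, which gave 9 regions only in MP2_HDAC1_OE, 2 only in MP2_NTC and 5 shared. Over the genome 329 such stretches had 10 or more regions, with a median of 33.3% only in MP2_HDAC1_OE. The share here was 56.2%, and 26 of the 329 stretches had a share at least as high. The highest-ranked region, chr7:84676167-84677665, was shared, with a rank above 87.7% in MP2_HDAC1_OE and 51.5% in MP2_NTC. The highest-ranked region only in MP2_HDAC1_OE, chr7:84664702-84665521, ranked above 73.5% and lay 7378 bp from the nearest MP2_NTC peak. The lists also differed in the other direction. At chr7:84672900-84673719, the MP2_NTC peak ranked above 69.6% of its list and the MP2_HDAC1_OE peak above 16.9%. A region only in MP2_HDAC1_OE (chr7:84673772-84674163, above 43.6%) lay 52 bp from this MP2_NTC peak.

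**Figure D2:**
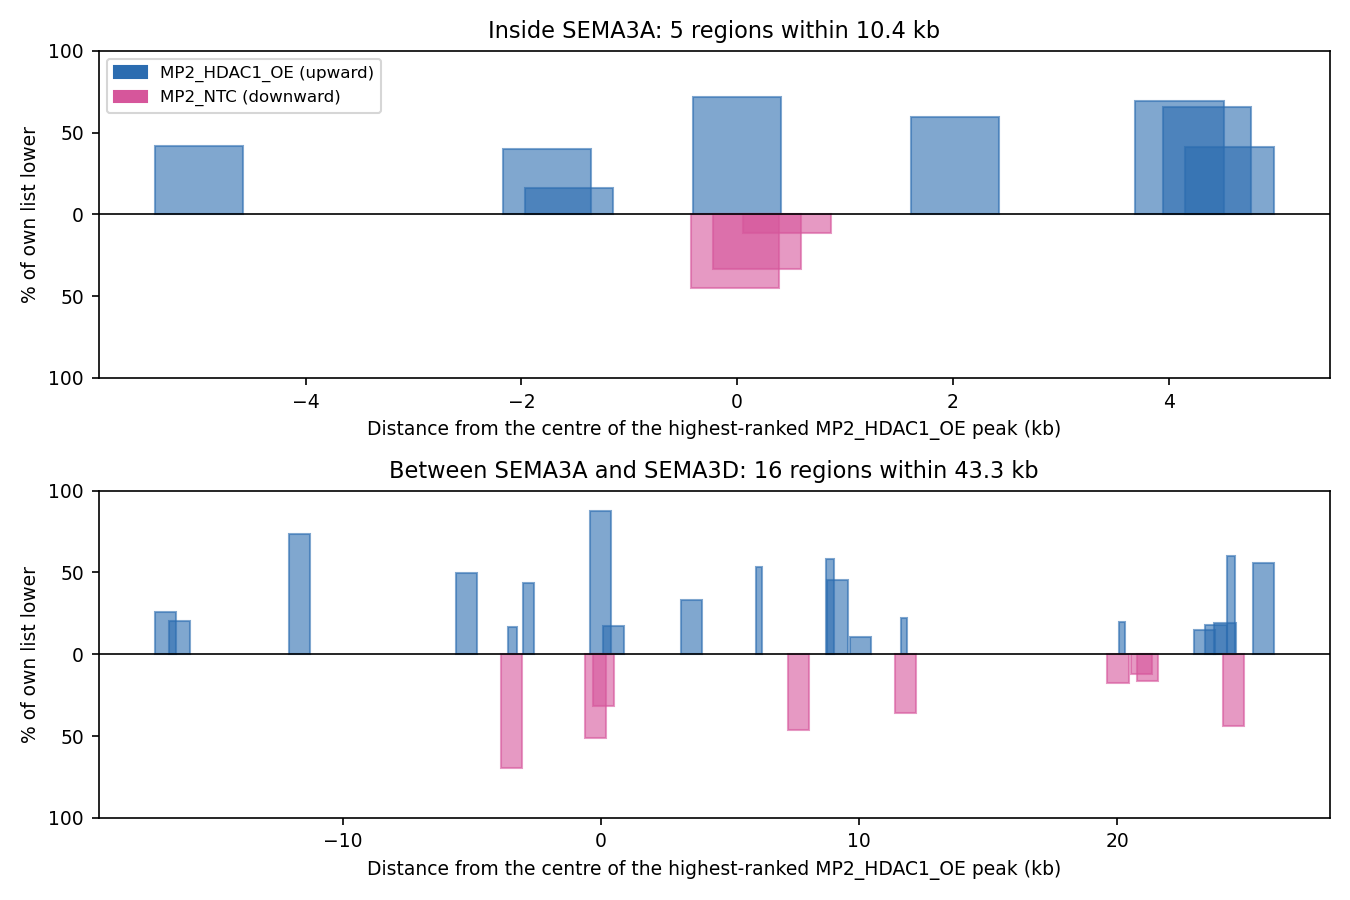
Bars are peaks drawn to their width, upward for MP2_HDAC1_OE (blue) and downward for MP2_NTC (pink), with the share of their own list that had a lower signal (percent) on the vertical axis and the distance from the highest-ranked MP2_HDAC1_OE peak (kb) on the horizontal axis. Upper panel, the 10.4 kb inside *SEMA3A*, where MP2_NTC peaks sit at 1 of 5 regions. Lower panel, the 43.3 kb between *SEMA3A* and *SEMA3D*, where 5 of 16 regions hold peaks of both lists, 9 only MP2_HDAC1_OE and 2 only MP2_NTC peaks.

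*SEMA3D* (chr7:84995553-85250243, minus strand) had 1 region inside it, only in MP2_HDAC1_OE. This single peak, chr7:85019969-85020788, reached a signal of 68.2, above 80.3% of the list, the highest of the 26 regions only in MP2_HDAC1_OE. It lay 166268 bp downstream of the start, and the nearest MP2_NTC peak was 318296 bp away. A further 8 regions had *SEMA3D* as the nearest of the 9 genes but lay at least 1902 kb beyond it, and other protein-coding genes were nearer to all 8. They were 2 only in MP2_HDAC1_OE, 2 only in MP2_NTC and 4 shared. Without them, the regions up to the end of *SEMA3D* were 24 only in MP2_HDAC1_OE (72.7%, Wilson interval 55.8% to 84.9%), 3 only in MP2_NTC and 6 shared. This interval too covers counting error alone. It takes in neither the choice of the window nor the crowding of regions, 16 of which lay within 43.3 kb.

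**Figure D3:**
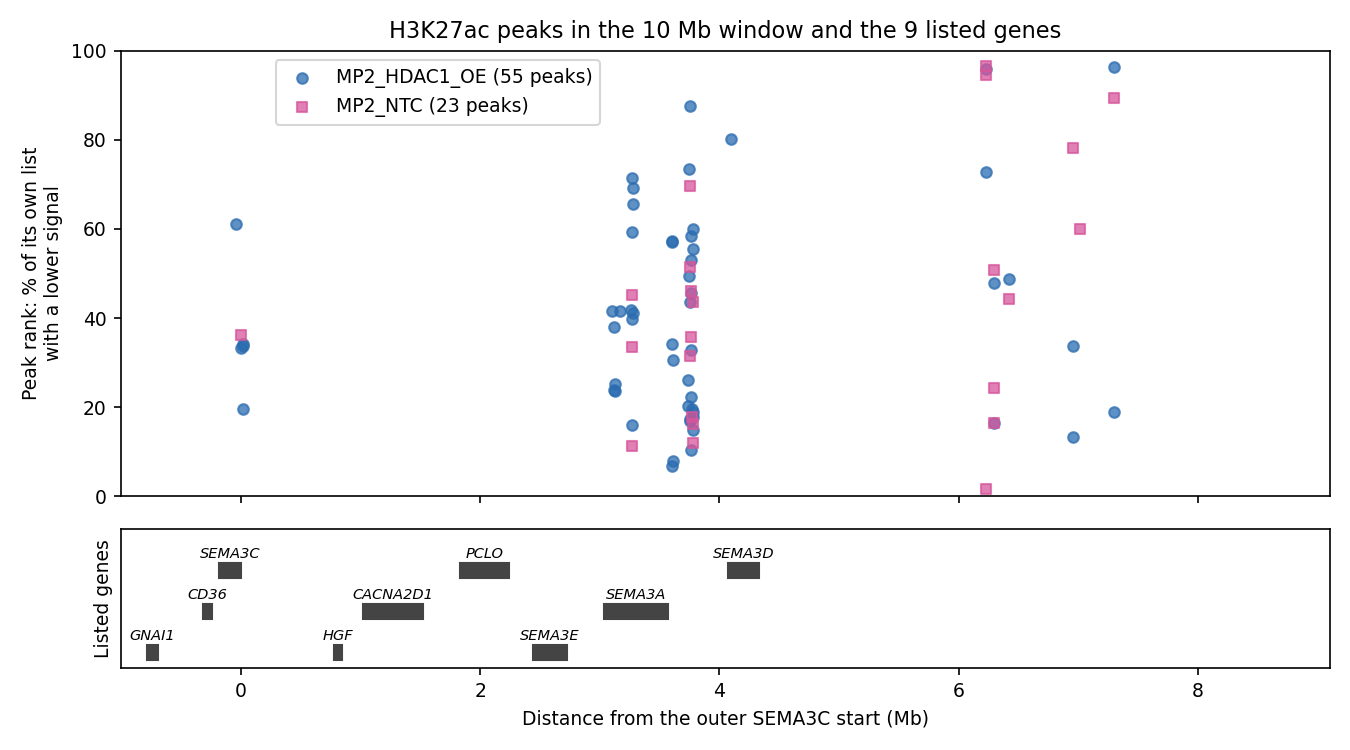
Points are the 55 MP2_HDAC1_OE peaks (blue circles) and 23 MP2_NTC peaks (pink squares) of the window, with the distance from the outer *SEMA3C* start (Mb) on the horizontal axis and the share of their own list that had a lower signal (percent) on the vertical axis. Bars below are the 9 genes, and the 3.08 Mb around *HGF*, *CACNA2D1*, *PCLO* and *SEMA3E* hold no peak.

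By the promoter windows used, the regions differed from the rest of the lists in position as well. Of the 33 regions up to the end of *SEMA3D*, 2 (6.06%) overlapped a promoter window of a coding gene, and all 8 beyond it did, against 57.9% of all regions. *SEMA3A*, the nearest gene to 27 of the 33, was searched only at the ends of its interval. A start inside the interval would be missed, which would make the 6.06%, and the 11.5% below, too low. By class, 3 of 26 regions only in MP2_HDAC1_OE were at promoters (11.5%, Wilson interval up to 29.0%), against 40.5% of all such regions (39.2% to 41.9%). These intervals cover counting error alone, treat crowded regions as independent, and are no test of a difference. Peaks of the window were of lower rank than the lists they came from. The MP2_HDAC1_OE peaks stood above a median of 38.0% of their list, from 6.89% to 96.4%, and the MP2_NTC peaks above a median of 43.7%, from 1.56% to 96.6%. For regions only in MP2_HDAC1_OE, however, the median of 41.6% in the window was the same as over all such regions (41.6%). The width was exactly 820 bp in 44 of the 55 MP2_HDAC1_OE peaks (against 56.4% of the list) and in 19 of the 23 MP2_NTC peaks (against 61.7% of the list). The window made up 0.254% of the length covered by MP2_HDAC1_OE peaks (31.9 kb) and 0.114% of that covered by MP2_NTC peaks (13.2 kb).

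The score of a peak rises to 1000 with its reproducibility. Whether this was read between the 2 samples or within their pooled reads is not given in the sources used here. The score was 1000 for 8 of 55 MP2_HDAC1_OE peaks in the window (14.5%, against 33.8% of the list) and for 6 of 23 MP2_NTC peaks (26.1%, against 40.4%). Of the 26 regions only in MP2_HDAC1_OE, 2 reached 1000 (7.69%, against 14.1% of all such regions), and the lowest score was 559. Their median score was 690, against 717 over all regions only in MP2_HDAC1_OE.

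A region in 1 list can lie close to a peak of the other, and the 26 regions only in MP2_HDAC1_OE fell into both kinds. Within 1 kb of an MP2_NTC peak were 9 of them (34.6%, against 29.1% of all regions only in MP2_HDAC1_OE), and within 5 kb were 14 (53.8%, against 49.4%). Over 100 kb from any MP2_NTC peak were 6 (23.1%, against 10.9%), of which 3 were in the first stretch inside *SEMA3A*, 2 just beyond this gene and 1 in *SEMA3D*. In the 43.3 kb stretch 5 of 9 were within 1 kb. Of the 5 regions only in MP2_NTC, 3 lay within 1 kb of an MP2_HDAC1_OE peak (against 32.2% of all regions only in MP2_NTC) and 4 within 5 kb (against 50.9%).

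**Figure D4:**
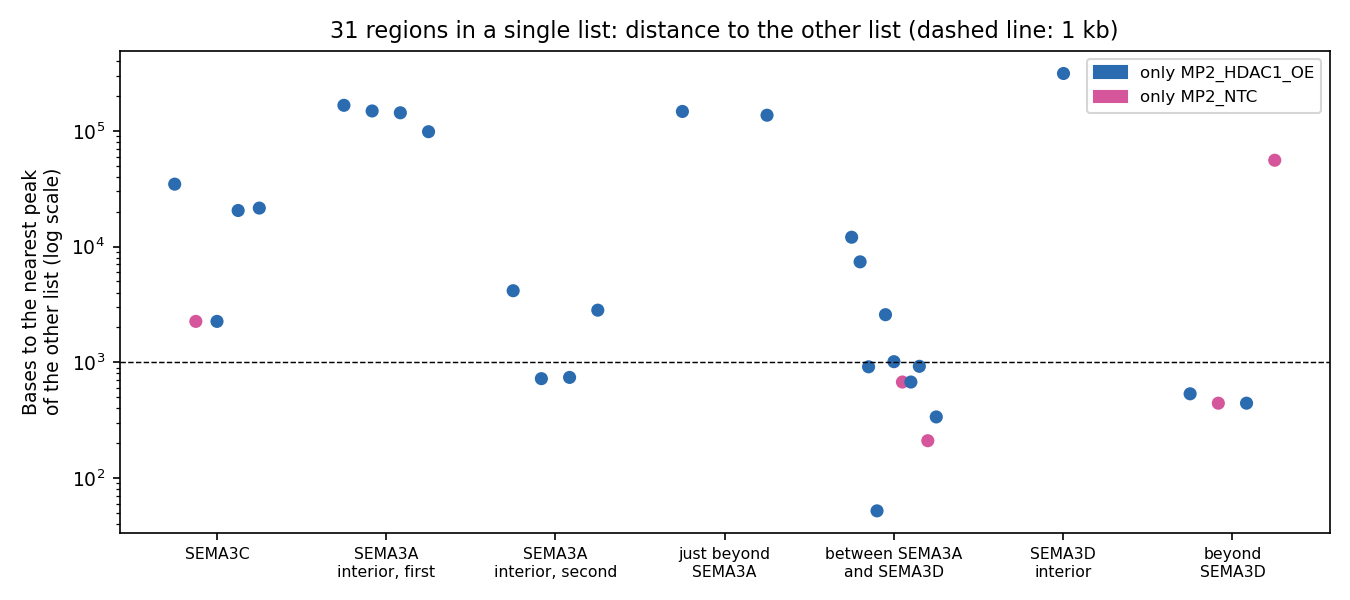
Points are the 31 regions found in a single list, blue for only MP2_HDAC1_OE and pink for only MP2_NTC, with the number of bases to the nearest peak of the other list on a log axis and the position along the window in 7 groups on the horizontal axis. The dashed line is 1 kb, and 6 blue points lie above 100 kb, at *SEMA3A* and *SEMA3D*.

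For the 10 shared regions, the rank of the strongest peak in each list was compared. The rank in MP2_HDAC1_OE minus that in MP2_NTC had a median of 3.16 percentage points, and it was above 0 in 6 of 10 regions. Over all 9477 shared regions the median was 1.51 and 54.7% were above 0. In the 6 shared regions at and beyond *SEMA3A* the differences ran from -52.7 to 36.3, and 4 of them were above 0. In the 4 at other genes they ran from -3.07 to 7.15. The middle 50% of all shared regions lay between -10.4 and 15.6, and by definition the other 50% lay outside this range. Of the 6 differences at *SEMA3A*, 36.3, 26.4 and 16.3 lay above it, -52.7 and -13.3 below it, and 1.84 inside it. These ranks have no error estimate, as each line has a single pooled list.

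**Figure D5:**
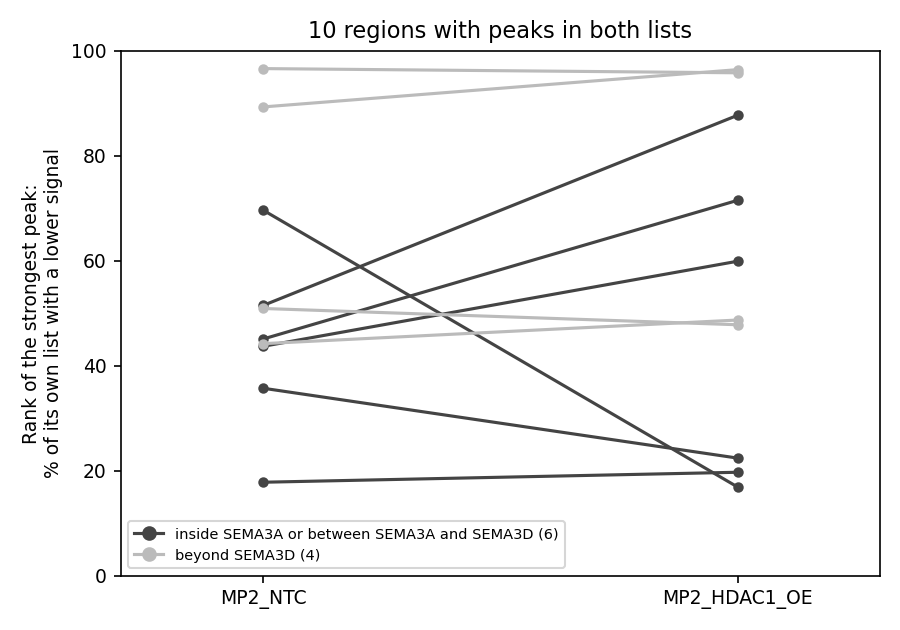
Each line joins the ranks of the strongest MP2_NTC peak (left) and MP2_HDAC1_OE peak (right) of 1 shared region, as the share of its own list with a lower signal (percent). Dark lines are the 6 regions inside *SEMA3A* or between it and *SEMA3D*, which run from -52.7 to 36.3 points, and pale lines are the 4 regions beyond *SEMA3D*, which stay within -3.07 to 7.15 points.

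The other genes of the semaphorin and HGF systems and the relatives of the neighbouring genes, 33 in all, were read at their promoters in the same way. A region only in MP2_HDAC1_OE lay in the promoter window of 5 of them (15.2%, against 11.7% of coding genes), one only in MP2_NTC at 2 (6.06%, against 10.1%) and a shared one at 6 (18.2%, against 35.8%). Among the ligands, *SEMA3B* had a shared region, above 88.8% of the MP2_HDAC1_OE and 88.5% of the MP2_NTC list, and *SEMA3F* and *SEMA3G* had none. Among 7 receptors, 2 had a region. *PLXNA1*, a plexin that signals for neuropilin-bound semaphorins, had one only in MP2_HDAC1_OE (above 26.2%). *PLXND1*, the receptor that SEMA3E binds without a neuropilin, had a shared one with ranks above 97.2% in MP2_HDAC1_OE and 53.0% in MP2_NTC. *NRP1* and *NRP2*, the neuropilins, and *PLXNA2*, *PLXNA3* and *PLXNA4* had none.

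*MET*, the receptor of HGF, had a promoter region only in MP2_HDAC1_OE, above 56.0% of its list, and none was listed at the 5 genes of HGF activation (*HGFAC*, *ST14* and *HPN*) and its inhibition (*SPINT1* and *SPINT2*). Of 9 genes of semaphorin signalling inside the cell, *RRAS*, *FARP2* and *CDK5* had a shared region, and *FARP2* also had one only in MP2_NTC. *RRAS*, a small GTPase on which plexins act, ranked above 99.1% and 98.9% of the lists. The relatives of *GNAI1* went opposite ways, with 1 region only in MP2_HDAC1_OE at *GNAI3* (above 80.9%) and 2 only in MP2_NTC at *GNAI2* (up to 42.8%). *SCARB1*, a scavenger receptor related to CD36, and *BSN*, the partner scaffold of PCLO, had regions only in MP2_HDAC1_OE (above 69.3% and 56.4%). *SCARB2* had a shared one (above 19.6% and 55.5%), and the 3 relatives of *CACNA2D1* had none.

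The likeness of other genes to *SEMA3A* was taken as the summed difference in the 3 counts of regions nearest to a coding gene, over the 2 lists. *SEMA3A* had 19 regions only in MP2_HDAC1_OE, and 10 coding genes had more. The closest counts were those of *SGK1*, a kinase induced by serum and glucocorticoids, with 20 only in MP2_HDAC1_OE, 4 only in MP2_NTC and 4 shared. They were followed by *BTC*, a ligand of the EGF receptor, with 15, 5 and 6, and *RAP2B*, a Ras-related GTPase, with 16, 1 and 3.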

How the data were processed

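H3K27ac ChIP-sequencing compared MP2_HDAC1_OE with MP2_NTC, both made from MIA PaCa-2, with 2 H3K27ac and 2 control samples per line. The authors used the ENCODE pipeline on 75 bp single-end reads and deposited 1 optimal peak list per line (IDR, pooled samples). The submitters' processing notes name BWA 0.7.12, Picard 1.88 and hg38, and the caller is not given in the sources used here. The deposited signal is a positive value per peak, used to rank peaks within a list. The deposited score (540 to 1000) was described, and the deposited -log10 values were not used. The lists hold no read counts, so depth and its precision are unknown.

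Peaks sharing 1 bp were merged into regions. Genes and 250 bases before each start came from RefSeq tables (GRCh38.p14), and coding genes without a start got a promoter window at both gene ends. Named genes were the 9 genes, other coding genes of the window with a promoter region (at most 10), a list of pathway genes and relatives, and the 3 genes most like in counts. The genes, window and lists were chosen with earlier results of these data known. Alternatives covered overlap, threshold, list length, merging gap, window and promoter definition. Merging was tested on simulated lists, where 1200 of 1200 regions got their true class. Simulated regions lay well apart and their shared peaks always overlapped. This checks the code alone and does not cover regions close to a peak of the other list, as in the window. No test was run, since each line has 1 pooled list. Scripts ran under Python 3.11.15 with pandas 2.3.3, numpy 2.4.6, matplotlib 3.10.9 for plots, and scipy 1.17.1.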

Additional observations from a re-analysis of the deposited data

How the results depend on the processing

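Of 45 alternatives for 19 results, 35 left the value within its limit (1.5 times for a count, the 95% interval for a share or median), 10 moved it and 0 reversed it. Counts, shares and median ranks have no sign, so none could reverse. The 35 also include the counts of 0 for the 6 genes with no region nearest, at least 205 kb from any peak. No paired analysis was possible because the deposited peaks come from pooled samples, which also meant that leaving out a replicate could not be done. When single peaks had to overlap by 50% of both peaks, 46 MP2_HDAC1_OE and 11 MP2_NTC peaks had no partner. This setting changes both the unit counted and the overlap rule, and their parts were not separated. With peaks up to 500 bp apart merged, 3 regions were only in MP2_NTC. With the window from *GNAI1* to *SEMA3D*, 3 regions were only in MP2_NTC and 6 were shared, by construction. Chosen after the data were seen, larger gaps joined neighbouring regions. With 1 kb, 16 were only in MP2_HDAC1_OE and 2 only in MP2_NTC. With 5 kb these were 9 and 1, and the share only in MP2_HDAC1_OE was 47.4%. Under the other 6 alternatives the share was between 55.2%, with 1 kb, and 72.7%, with the window from *GNAI1* to *SEMA3D*. The share thus fell from 63.4% in the main setting to 55.2% with 1 kb and 47.4% with 5 kb. Its size depends on how finely peaks are merged. The share over all regions is not given at these gaps, so 55.2% and 47.4% cannot be set against the 28.6% found without a gap. Cutting the longer list to the length of the shorter left the share in the window at 63.4%. The use of both gene ends, which drops the MP2_NTC region at the inner *SEMA3C* start, was also chosen after the data were seen.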

Other observations

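The 8 regions beyond *SEMA3D* lay at promoters of 7 other coding genes. Those of *DMTF1*, *TMEM243*, *CROT* and *SRI* were shared and had like ranks in both lists. *DMTF1*, a transcription factor of the p53 pathway, stood above 95.8% of the MP2_HDAC1_OE and 96.6% of the MP2_NTC list, and *SRI*, a calcium-binding protein, above 96.4% and 89.3%. *TMEM243* stood above 47.8% and 50.9%, and *CROT*, a peroxisomal carnitine acyltransferase, above 48.7% and 44.2%. *ADAM22* had a region only in MP2_NTC (signal 55.4). No region was listed at the promoters of *ABCB1* and *ABCB4*, which encode transporters that carry drugs and phospholipids out of cells.

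At the neighbouring promoters of *SLC25A40* and *DBF4*, a kinase subunit that acts at replication origins, the lists alternated. An MP2_NTC peak at chr7:87876670-87877076 ranked above 78.1% of its list. It lay between MP2_HDAC1_OE peaks at chr7:87875850-87876135 (above 33.8%) and chr7:87877520-87878339 (above 13.3%), 534 bp and 443 bp away. With no gap allowed these are 3 regions of a single list each. The starts of *SEMA3C* show a similar alternation over 2256 bp, and whether read coverage alternates in the same way was not tested, since coverage was not used here.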
